A study of Mus musculus with 16 samples.

Results

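Transcripts of 35 genes encoding complement components, regulators and receptors were followed across the libraries of fat cell fractions. The 35 genes form a functional family, were matched by gene name in the deposited count table, and all 35 had a row among its 54532 genes. By role they comprised 6 recognition proteins of the classical and lectin pathways, 5 initiating proteases, 6 genes for C2, C3, C4, factor B and properdin, and 4 of the terminal pathway. The remaining members were 4 soluble regulators, 3 membrane regulators and 7 receptors.

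Complement is a cascade of plasma and tissue proteins in which recognition molecules and proteases of the classical, lectin and alternative pathways lead to cleavage of C3, opsonisation of targets, release of the peptides C3a and C5a, and assembly of a membrane attack complex. Regulators on cells and in fluid limit each of these steps, and receptors on phagocytes read the fragments. Adipose tissue is a known source of complement proteins, the best known being adipsin (Cfd, factor D), the protease that activates factor B.

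RNA was taken from cells of the gonadal fat depot of female mice of the inbred strain C57BL/6, and each library is a bulk sample. In the group called stress here, maternal separation and early weaning (MS), pups spent time away from the dam each day on postnatal days 2 to 16 and were weaned on day 17, whereas control (C) pups were left alone and weaned on day 21. Libraries of mature adipocytes (A), all on the high-fat diet (HF), numbered 3 from stress and 3 from control mice. Libraries of preadipocytes (P) on the high-fat diet numbered 4 from stress and 4 from control mice, and on the low-fat diet (LF) 1 of each. After collagenase digestion the tissue was spun and filtered into a mature and a stromal vascular fraction, and adipocytes were then enriched by magnetic sorting (MACS). The sources used here give neither the antibodies of that sort nor the age at harvest. Whether replicates are separate animals is not said either, so the p-values below describe variation among libraries, part of which may be technical.

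Library totals ran from 14182130 to 23368821 counts. Control high-fat preadipocyte libraries 1 and 3 differed at 6.96% of genes, against 43.1% to 79.0% in the 17 other pairs of replicates. The pair therefore entered every test and mean as a single sample. The labels of the fractions could be checked against marker lists. All 8 mature adipocyte markers were higher in the mature fraction (summed level 17014 to 57172 CPM, against 409 to 756 CPM in high-fat preadipocytes), and all 8 progenitor markers were lower (474 to 1124 CPM in mature adipocytes, against 6824 to 19023 CPM in high-fat preadipocytes). Neither fraction was pure: 16 macrophage markers summed to 1689 to 7910 CPM in mature adipocytes and 1556 to 8144 CPM in high-fat preadipocytes, with none of the 16 at 0 in any library. Control mature adipocyte libraries 1 and 3 held few rare transcripts, with 1.15 and 0.637 times as many genes of 1 to 5 counts as of 6 to 15 counts, against 1.55 to 2.23 in the other libraries. In bulk samples of this kind, fewer cells of a type and less RNA per cell cannot be told apart. CPM denotes counts scaled to library size (TMM factors) over all 16 libraries, and levels of different genes are compared only on the authors' FPKM, which divide by gene length.

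**Figure D1:**
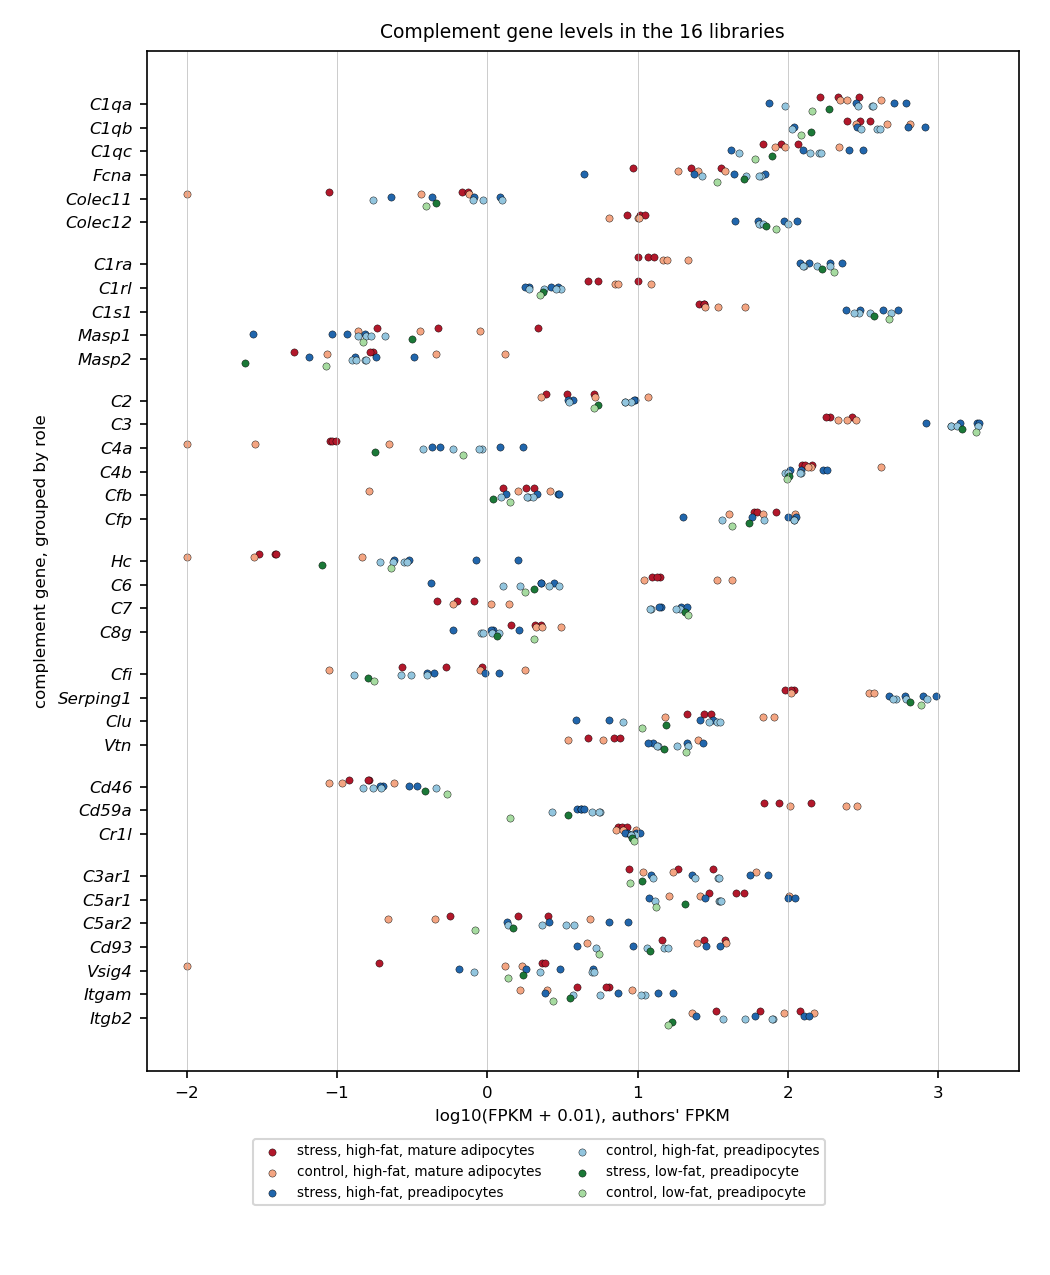
Level of each of the 35 complement genes in each of the 16 libraries, as log10 of the authors' FPKM plus 0.01, with genes grouped by role and 1 point per library coloured by group. C3 lies at the right in preadipocytes, C1ra, C1s1 and C7 points split by fraction to the right in preadipocytes, and those of C6 and Cd59a to the right in mature adipocytes.

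The order of the complement transcripts at the top of the range differed between the 2 fractions. In high-fat preadipocytes C3, the central component, had the highest mean level, 1471 ± 388 FPKM (SD, n = 7), followed by Serping1, encoding the C1 inhibitor, at 683 ± 182 FPKM. In mature adipocytes C1qb, a chain of the recognition molecule C1q, ranked first at 382 ± 149 FPKM (SD, n = 6), ahead of C1qa at 261 ± 87.6 FPKM and C3 at 230 ± 42.0 FPKM, and the ranges of neighbours in that order overlapped. C1qb and C1qa averaged 379 and 318 FPKM in high-fat preadipocytes, at ranks 3 and 5. C3 alone made up 8.70% to 18.5% of the summed FPKM of the 35 genes in mature adipocyte samples, against 19.8% to 45.4% in high-fat preadipocyte samples and 41.6% and 45.4% in the low-fat pair. The 35 genes together summed to 1432 to 2622 FPKM in mature adipocytes, against 3686 to 4642 FPKM in high-fat preadipocytes, so the groups did not overlap. At the low end of both fractions lay Hc, Masp2, Masp1, Cd46, C4a, Colec11 and Cfi, each with a mean under 1 FPKM in each fraction.

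Mature adipocytes were compared with preadipocytes in the 13 high-fat samples, with early life treatment as a covariate (edgeR quasi-likelihood test, Benjamini-Hochberg adjustment over 17948 genes, threshold 0.05). Of the 35 complement genes 14 passed, 5 of them higher and 9 lower in mature adipocytes. Over all genes tested 59.8% passed, 26.9% higher and 32.9% lower, so the share of complement genes was below that of the genes as a whole. The median log2 fold change was -0.27 over the 35 genes and -0.22 over all genes. Every mature adipocyte sample lay above every high-fat preadipocyte sample for 4 members, C1rl, C6, C8g and Cd59a (17.8% of all genes), and below for 8, C1ra, C1s1, C3, C4a, Hc, C7, Colec12 and Serping1 (19.4% of all genes).

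**Figure D2:**
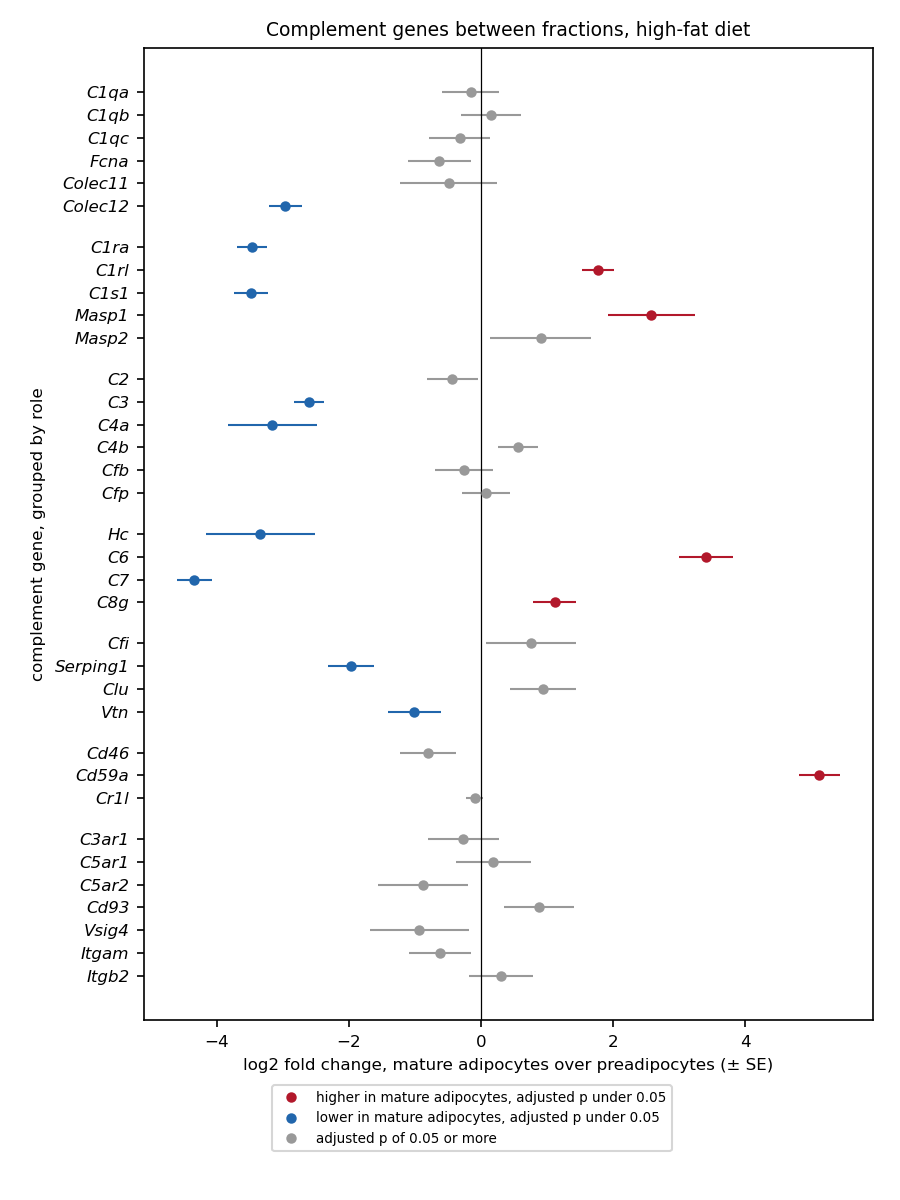
Log2 fold change of mature adipocytes over preadipocytes on the high-fat diet for the 35 complement genes, grouped by role, with bars for the standard error of the fit and colours for the result of the test. The 5 higher genes run from C8g at 1.12 to Cd59a at 5.12 and the 9 lower genes from Vtn at -1.01 to C7 at -4.34, and all 7 receptors at the bottom are grey.

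The initiating proteases of the classical pathway fell together in mature adipocytes. C1ra encodes C1r, the protease that C1q activates. It had 33.5, 34.5 and 41.9 CPM in stress and 42.6, 51.4 and 64.3 CPM in control mature adipocytes, against 568, 679, 405 and 343 CPM in stress and 384, 554, 372 and 464 CPM in control preadipocytes. The 2 fractions were far apart, and the log2 fold change was -3.47 ± 0.23 (SE), 11.1-fold lower (adjusted p = 3.34e-08). C1s1 encodes C1s, which C1r cleaves and which in turn cleaves C4 and C2. Its levels were 90.6, 85.8 and 95.0 CPM in stress and 86.3, 118 and 160 CPM in control mature adipocytes, against 1341, 1669, 927 and 724 CPM in stress and 930, 1484, 854 and 1110 CPM in control preadipocytes. That was an 11.2-fold lower level (-3.48 ± 0.26, adjusted p = 7.05e-08). The near copies C1rb and C1s2 align to C1ra and C1s1 with 98.02% and 95.9% identity, so reads may be shared, but C1rb reached at most 9 counts and C1s2 at most 72 counts in a library.

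C1rl, for a C1r-like protease, moved the other way. Its level was 34.2, 16.4 and 15.3 CPM in stress and 36.3, 23.6 and 22.2 CPM in control mature adipocytes, against 7.93, 8.80, 5.52 and 5.08 CPM in stress and 7.21, 9.12, 8.60 and 5.66 CPM in control preadipocytes. All 6 mature samples were higher than all preadipocyte samples, a 3.40-fold difference (1.77 ± 0.24, adjusted p = 2.30e-05). The 3 genes are neighbours on mouse chromosome 6 (GRCm38): C1rl at chr6:124493113-124510643 on the plus strand, C1ra at chr6:124512405-124523443 on the plus strand and C1s1 at chr6:124530345-124542359 on the minus strand, with gaps of 1761 and 6901 bases and no protein-coding gene between them. The 250 bases upstream of each RefSeq start (GRCm38.p6) are shown because adjacent genes went in opposite directions. The C1ra window overlaps the gene span given above, since its RefSeq start lies further downstream. Capitals mark a match to TTGCNNAA, a C/EBP core, the only one of 5 motifs searched on both strands that occurred in these 3 windows, and 9.56% of all 32851 promoters hold it. C1s1 has a further RefSeq start, whose window (chr6:124542322-124542571) held none of the 5 motifs and is not shown.
C1rl (chr6:124492863-124493112, plus strand): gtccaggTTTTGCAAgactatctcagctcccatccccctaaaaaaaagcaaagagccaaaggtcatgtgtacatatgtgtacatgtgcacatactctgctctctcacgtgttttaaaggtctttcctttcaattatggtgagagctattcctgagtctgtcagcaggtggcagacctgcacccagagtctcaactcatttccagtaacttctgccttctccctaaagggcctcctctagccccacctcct
C1ra (chr6:124512371-124512620, plus strand): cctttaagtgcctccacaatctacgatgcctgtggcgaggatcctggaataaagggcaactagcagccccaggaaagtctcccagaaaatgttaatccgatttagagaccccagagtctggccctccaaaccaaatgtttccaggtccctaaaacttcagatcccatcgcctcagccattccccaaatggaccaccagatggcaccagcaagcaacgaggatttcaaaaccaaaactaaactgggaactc
C1s1 (chr6:124542360-124542609, minus strand): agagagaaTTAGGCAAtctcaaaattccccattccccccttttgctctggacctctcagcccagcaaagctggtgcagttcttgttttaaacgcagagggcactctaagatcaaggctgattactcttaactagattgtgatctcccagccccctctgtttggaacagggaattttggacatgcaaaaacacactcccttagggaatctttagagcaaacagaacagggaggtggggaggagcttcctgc

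The lectin pathway proteases were rare. Masp1 encodes MASP-1 and, by splicing, MASP-3, the protease that activates adipsin. It had 1.92, 21.1 and 4.94 CPM in stress and 1.23, 3.77 and 8.68 CPM in control mature adipocytes, against 0.172, 0.8003, 1.38 and 0.999 CPM in stress and 1.27, 1.40, 1.55 and 1.95 CPM in control preadipocytes. The fractions overlapped, and the fold change was 5.96 (2.58 ± 0.66 on the log2 scale, adjusted p = 0.00365). Without stress mature adipocyte library 2, which held the highest value, the log2 fold change was 1.76 (adjusted p = 0.0137). Masp2, whose protease cleaves C4 and C2, did not pass (0.90 ± 0.76, adjusted p = 0.324). Both overlap a more strongly counted gene on the other strand, Masp1 over 525 bases with Rtp4 and Masp2 over 3118 bases with Tardbp. Whether the counting used strand is not given in the sources used here.

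Among the recognition proteins 1 of 6 passed. Colec12 encodes a membrane collectin and scavenger receptor. It had 38.7, 37.0 and 30.9 CPM in stress and 32.4, 37.5 and 21.2 CPM in control mature adipocytes, against 311, 379, 206 and 142 CPM in stress and 218, 327, 213 and 229 CPM in control preadipocytes. The fractions did not overlap, and the fold was 7.80 towards preadipocytes (-2.96 ± 0.25, adjusted p = 1.93e-07). The 3 chains of C1q spanned similar ranges in the 2 fractions. C1qa ran from 193 to 478 CPM (median 240.1) in mature adipocytes and from 77.2 to 606 CPM (median 303) in high-fat preadipocytes, with log2 fold changes of -0.16 ± 0.43, 0.15 ± 0.45 and -0.33 ± 0.46 for C1qa, C1qb and C1qc (adjusted p = 0.772, 0.787 and 0.561). Fcna, encoding ficolin A, and Colec11, a soluble collectin, did not pass either (-0.63 ± 0.47 and -0.49 ± 0.74, adjusted p = 0.263 and 0.586). Colec11 never exceeded 2.03 CPM and was at 0 in control mature adipocyte library 3.

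C3 fell in mature adipocytes without falling to a low level. It had 1103, 1357 and 1008 CPM in stress and 1239, 1225 and 1451 CPM in control mature adipocytes, against 9249, 9465, 6998 and 4092 CPM in stress and 6340, 9226, 6185 and 6927 CPM in control preadipocytes. The difference was 6.08-fold (-2.60 ± 0.23, adjusted p = 3.47e-07). C4b, which encodes the C4 that the classical and lectin pathways cleave, did not pass (0.56 ± 0.30, adjusted p = 0.118). Its levels were 799, 816 and 809 CPM in stress and 794, 862 and 2342 CPM in control mature adipocytes, and 531 to 993 CPM in high-fat preadipocytes, so 1 control library stood far above the rest. It passed at 0.80 on the log2 scale (adjusted p = 0.0323) without stress preadipocyte libraries 3 and 4.

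C4a, the second mouse C4 gene, went down with C3. It is listed as a processed transcript in the files and had 0.556, 0.510 and 0.604 CPM in stress and 0.112, 1.44 and 0 CPM in control mature adipocytes, against 7.42, 10.5, 2.86 and 2.47 CPM in stress and 3.66, 5.57, 5.38 and 2.26 CPM in control preadipocytes. The value of 0 allows up to 0.258 CPM in that library (3 counts, covering counting error only). C4a was 8.94-fold lower (-3.16 ± 0.68, adjusted p = 0.00100), and -4.03 on the log2 scale without control mature adipocyte library 2. Its transcript is 96.1% identical to that of C4b, so a share of these few counts may belong to C4b. C2, the protease of the classical C3 convertase, Cfb, its alternative pathway counterpart factor B, and Cfp, encoding properdin, had log2 fold changes of -0.43 ± 0.39, -0.26 ± 0.44 and 0.07 ± 0.37 and did not pass (adjusted p = 0.350, 0.623 and 0.882). Properdin is a stabiliser of the alternative pathway convertase, and its transcript ran from 68.8 to 213 CPM in mature adipocytes and from 34.3 to 192 CPM in high-fat preadipocytes. In control mature adipocyte library 3 Cfb was at 0.430 CPM, against 3.99 to 7.13 CPM in the other mature libraries.

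All 4 terminal pathway genes among the members passed, and they split. C8a, C8b and C9 belong to the same pathway but were not members, and reached at most 10, 3 and 7 counts in a library. C6 and C7 encode proteins that bind C5b in turn during assembly of the membrane attack complex. C6 had 50.02, 50.04 and 51.9 CPM in stress and 147, 43.4 and 118 CPM in control mature adipocytes, against 8.06, 1.46, 9.57 and 7.73 CPM in stress and 9.12, 4.40, 10.6 and 5.84 CPM in control preadipocytes. Every mature sample was higher, and the fold was 10.6 (3.40 ± 0.42, adjusted p = 7.46e-06). C7 had 1.36, 1.66 and 2.37 CPM in stress and 2.73, 1.72 and 3.70 CPM in control mature adipocytes, against 38.2, 36.8, 51.1 and 54.9 CPM in stress and 33.0, 49.6, 32.2 and 48.7 CPM in control preadipocytes. No mature sample came near a preadipocyte sample, and C7 was 20.3-fold lower (-4.34 ± 0.26, adjusted p = 1.50e-08). Per length, C6 averaged 21.2 ± 13.3 FPKM and C7 0.818 ± 0.349 FPKM in mature adipocytes (SD, n = 6), against 1.91 ± 0.860 FPKM for C6 and 16.9 ± 3.44 FPKM for C7 in high-fat preadipocytes (n = 7), so the order of the pair was reversed between fractions.

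C6 and C7 lie on chromosome 15, at chr15:4727175-4814967 on the plus strand and chr15:4988762-5063740 on the minus strand, 173794 bases apart with 1 protein-coding gene between them. Their upstream bases are shown because these neighbours had opposite patterns. Capitals in C7 mark TTCNNNGAA, the STAT core, present in 7.02% of all promoters, and none of the 5 motifs matched in the C6 window.
C6 (chr15:4726960-4727209, plus strand): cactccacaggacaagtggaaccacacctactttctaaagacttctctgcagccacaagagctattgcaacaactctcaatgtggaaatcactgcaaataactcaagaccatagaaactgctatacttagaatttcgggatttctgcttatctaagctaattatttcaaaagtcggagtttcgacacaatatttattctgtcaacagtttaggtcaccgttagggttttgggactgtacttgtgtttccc
C7 (chr15:5063774-5064023, minus strand): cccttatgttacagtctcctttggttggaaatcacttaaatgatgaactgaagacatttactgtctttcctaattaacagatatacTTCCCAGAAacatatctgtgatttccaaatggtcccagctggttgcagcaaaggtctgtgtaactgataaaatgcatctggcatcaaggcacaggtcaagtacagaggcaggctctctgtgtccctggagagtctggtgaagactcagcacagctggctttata

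Hc, the mouse gene for C5, was close to the detection limit in mature adipocytes. It had 0.202, 0.128 and 0.202 CPM in stress and 0.112, 0.943 and 0 CPM in control mature adipocytes, against 1.42, 5.18, 1.78 and 9.59 CPM in stress and 1.43, 1.64, 1.14 and 1.77 CPM in control preadipocytes. It was 10.2-fold lower (-3.35 ± 0.82, adjusted p = 0.00282), and -4.57 on the log2 scale without control mature adipocyte library 2. C8g, for the gamma chain of C8, had 3.79, 3.06 and 2.32 CPM in stress and 3.06, 3.83 and 4.56 CPM in control mature adipocytes, against 0.862, 1.60, 1.53 and 2.30 CPM in stress and 1.35, 1.54, 1.39 and 1.77 CPM in control preadipocytes. The groups were narrowly apart and the fold was 2.17 (1.12 ± 0.33, adjusted p = 0.00863), while the control low-fat preadipocyte library, outside this comparison, reached 3.02 CPM. C8g overlaps Fbxw5, which had up to 1886 counts against 75 for C8g, over 970 bases on the opposite strand.

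Of the soluble regulators 2 of 4 passed, both lower. Serping1 encodes the C1 inhibitor, which inactivates C1r, C1s and the MASPs. It had 286, 221 and 267 CPM in stress and 790, 270 and 862 CPM in control mature adipocytes, against 1828, 2205, 1363 and 1043 CPM in stress and 1232, 1901, 1167 and 1420 CPM in control preadipocytes. The control mature libraries with the 2 high values were the ones that held few rare transcripts. The log2 fold change was -1.97 ± 0.35 (3.91-fold lower, adjusted p = 0.000213), and -2.58 without those 2 libraries. Clu, encoding the terminal pathway inhibitor clusterin, and Cfi, encoding factor I, which cleaves C3b and C4b, did not pass (0.94 ± 0.50 and 0.75 ± 0.69, adjusted p = 0.116 and 0.360). Clu ran from 57.8 to 275 CPM in mature adipocytes and from 13.1 to 119 CPM in high-fat preadipocytes, with its lowest values of 13.1 and 21.2 CPM in stress preadipocyte libraries 3 and 4.

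Vtn, encoding vitronectin, another inhibitor of the terminal complex, passed narrowly. Its levels were 10.7, 14.02 and 17.0 CPM in stress and 6.85, 13.1 and 51.0 CPM in control mature adipocytes, against 43.3, 54.4, 25.3 and 22.9 CPM in stress and 27.8, 42.7, 27.0 and 37.5 CPM in control preadipocytes. The groups overlapped through control mature adipocyte library 3, without which the log2 fold change was -1.56 (adjusted p = 0.000281). With all samples Vtn was 2.02-fold lower (-1.01 ± 0.40, adjusted p = 0.0398), and the call was lost in 9 of 13 fits that left out 1 sample. The adjusted p was 0.0929, 0.0803 and 0.0654 without stress mature adipocyte library 1, 2 or 3, and 0.0585 and 0.0684 without control mature adipocyte library 1 or 2. It was 0.0654 and 0.0718 without stress preadipocyte library 1 or 2, and 0.0641 and 0.0527 without control preadipocyte library 2 or 4.

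Cd59a showed the largest fold change of the 35 genes. It encodes a membrane anchored protein that stops the last steps of the membrane attack complex. It had 292, 156 and 138 CPM in stress and 508, 208 and 435 CPM in control mature adipocytes, against 7.07, 7.53, 7.40 and 7.64 CPM in stress and 9.001, 9.92, 10.03 and 4.91 CPM in control preadipocytes. The lowest mature sample was far above the highest preadipocyte sample, and the fitted fold was 34.8 (5.12 ± 0.31, adjusted p = 1.54e-08). The paralog Cd59b, 89.6% identical over the aligned part, was much rarer and also higher in mature adipocytes, at 4.73 to 14.7 CPM, against 0.868 to 1.40 CPM in high-fat preadipocytes (2.87 ± 0.32, adjusted p = 2.84e-06). The bases upstream of Cd59a are shown as those of the member that differed most. Capitals mark GAAANNGAA, the core of the interferon-stimulated response element, which 7.13% of all promoters hold.
Cd59a (chr2:104095551-104095800, plus strand): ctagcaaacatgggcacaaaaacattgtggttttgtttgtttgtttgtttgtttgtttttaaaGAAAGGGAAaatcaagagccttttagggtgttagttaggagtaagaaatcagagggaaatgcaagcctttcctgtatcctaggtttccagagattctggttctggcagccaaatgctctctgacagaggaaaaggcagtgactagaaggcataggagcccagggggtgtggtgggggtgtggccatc

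The other membrane regulators did not pass. Cr1l, encoding Crry, the broadly expressed rodent inhibitor of C3 convertases, was the steadiest member, at 73.1 to 99.4 CPM in mature adipocytes and 82.1 to 106 CPM in high-fat preadipocytes (-0.10 ± 0.13, adjusted p = 0.531). Cd46, a cofactor for factor I that in mice is known mainly from the testis, never exceeded 4.06 CPM (-0.81 ± 0.42, adjusted p = 0.111). It passed without control mature adipocyte library 3 (-1.01, adjusted p = 0.0453).

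None of the 7 receptors passed between the fractions, by edgeR, by DESeq2 or by limma on FPKM. Their log2 fold changes ran from -0.94 for Vsig4, a phagocyte receptor for C3 fragments, to 0.88 for Cd93, a transmembrane glycoprotein of myeloid and endothelial cells first described as a C1q receptor. Itgb2 and Itgam, which pair to form complement receptor 3, stood at 0.30 ± 0.48 and -0.62 ± 0.47 (adjusted p = 0.609 and 0.265). C3ar1, the C3a receptor, and C5ar1 and C5ar2, the C5a receptors, stood at -0.27 ± 0.54, 0.19 ± 0.56 and -0.88 ± 0.68 (adjusted p = 0.685, 0.792 and 0.279). C5ar2 ran from 0.724 to 18.8 CPM in mature adipocytes and from 4.75 to 29.8 CPM in high-fat preadipocytes, and Itgb2 from 68.7 to 502 CPM in mature adipocytes and from 73.7 to 406 CPM in high-fat preadipocytes, so the fractions overlapped widely. Without control mature adipocyte library 2 alone C5ar2 passed at -1.96 (adjusted p = 0.00755) and Itgam at -1.11 (adjusted p = 0.0397). Cd93 passed at 1.59 (adjusted p = 0.0207) without stress preadipocyte libraries 3 and 4. Of 8 endothelial markers 7 were higher in mature adipocytes, and they summed to 398 to 2125 CPM, against 178 to 755 CPM in high-fat preadipocytes, and the part of these cells in the Cd93 values was not tested.

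The C1q chains and 3 of the 7 receptors were highest where macrophage markers were highest. The 3 libraries with the highest sum were stress preadipocyte libraries 3 and 4 (7416 and 8144 CPM) and control mature adipocyte library 2 (7910 CPM). For 6 members, C1qa, C1qb, C1qc, C3ar1, C5ar1 and C5ar2, these were also the 3 highest of all 16 libraries, as they were for 9 of the 16 macrophage markers and 2.62% of the 17948 genes. C1qb, for example, had 665 and 850 CPM in stress preadipocyte libraries 3 and 4, and 311 and 117 CPM in stress preadipocyte libraries 1 and 2. C5ar1 had 252 and 276 CPM in stress preadipocyte libraries 3 and 4 and 71.8 and 30.2 CPM in libraries 1 and 2. In mature adipocytes it had 148, 76.0 and 127 CPM under stress, and 40.7, 287 and 66.1 CPM in controls, of which library 2 is the high one. The receptors Cd93, Vsig4, Itgam and Itgb2 did not have all 3 libraries with the highest macrophage sums on top. Vsig4 was highest in control high-fat preadipocyte libraries 1 and 3 (7.45 and 7.62 CPM). It had 2.77 CPM in control mature adipocyte library 2. C3 did not share the order of the macrophage sums, since its lowest preadipocyte value of 4092 CPM was in stress library 4. Cd59a stayed between 2.57 and 10.03 CPM in all preadipocyte libraries.

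**Figure D3:**
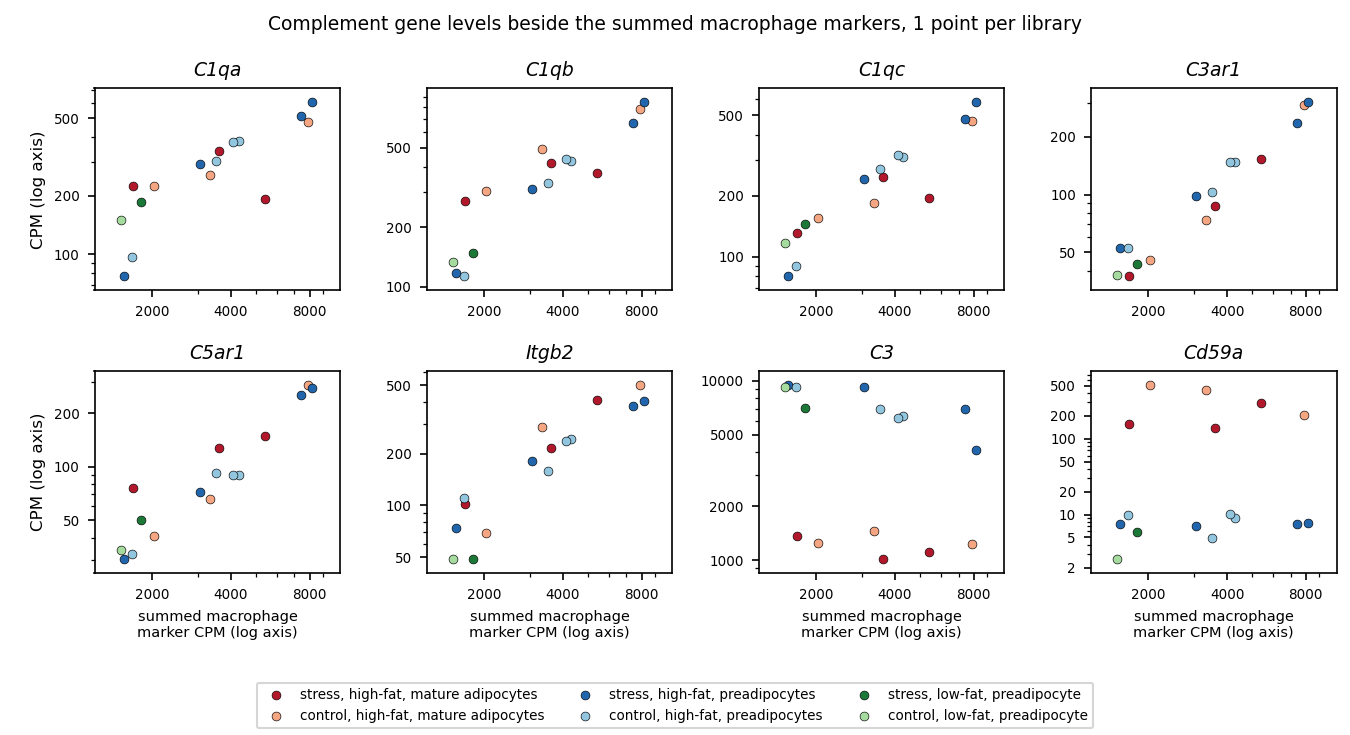
Level of 8 complement genes (CPM, log axis) against the summed CPM of 16 macrophage markers (log axis), 1 point per library, coloured by group. The 3 libraries with sums of 7416 to 8144 CPM hold the 3 highest C1qa, C1qb, C1qc, C3ar1 and C5ar1 values, whereas C3 and Cd59a points separate by fraction at every marker level.

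The proportions of the C1q chains differed between samples by less than their levels did. C1qb stood at 1.15 to 1.85 times the FPKM of C1qa in mature adipocytes, against 1.02 to 1.45 times in high-fat preadipocytes and 0.755 and 0.854 times in the stress and control low-fat samples, which lay below all others. C1qc stood at 0.313 to 0.549 times C1qa in mature adipocytes, against 0.444 to 0.557 times in high-fat preadipocytes and 0.419 and 0.418 times in the low-fat samples. The genes lie together on chromosome 4 on the minus strand, C1qb at chr4:136880129-136886187, C1qc at chr4:136889804-136893065 and C1qa at chr4:136895917-136898803, with gaps of 3616 and 2851 bases. Upstream bases of the chains in the promoter table are shown because their levels moved together. The C1qc window overlaps the gene span given above, since its RefSeq start lies further downstream. Capitals in C1qc mark GAGGAAGT on the other strand, the site of the ETS factor PU.1, which 2.44% of all promoters hold and C1qc alone of the 26 member promoters.
C1qb (chr4:136886201-136886450, minus strand): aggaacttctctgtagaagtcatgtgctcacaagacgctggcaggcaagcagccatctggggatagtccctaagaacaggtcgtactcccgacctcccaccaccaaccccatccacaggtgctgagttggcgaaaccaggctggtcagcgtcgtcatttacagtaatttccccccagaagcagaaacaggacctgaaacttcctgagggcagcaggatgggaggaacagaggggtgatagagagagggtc
C1qc (chr4:136892915-136893164, minus strand): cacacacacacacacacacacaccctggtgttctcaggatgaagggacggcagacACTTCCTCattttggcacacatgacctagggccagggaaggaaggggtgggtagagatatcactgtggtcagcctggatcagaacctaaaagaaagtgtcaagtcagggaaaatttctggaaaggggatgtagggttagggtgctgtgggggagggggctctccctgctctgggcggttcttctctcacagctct

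Of 28 further genes of the complement system 13 were expressed highly enough to be tested between fractions, and 4 were higher and 6 lower in mature adipocytes. Over all genes tested 26.9% were higher and 32.9% lower. Cfd, adipsin, which is also among the 8 mature adipocyte markers, was 288-fold higher (8.17 ± 0.93, adjusted p = 3.92e-06), at 2615, 8751 and 1836 CPM in stress and 7285, 979 and 7271 CPM in control mature adipocytes, against 0.825 to 31.8 CPM in high-fat preadipocytes. Even the lowest mature library was far above every preadipocyte library. Markers of other stromal cells differed as well: 4 mural markers summed to 443 to 1111 CPM in mature adipocytes, against 38.8 to 324 CPM in high-fat preadipocytes, while 8 mesothelial markers summed to 36.4 to 141 CPM in mature adipocytes, against 137 to 1227 CPM in high-fat preadipocytes, and their part in any complement value was not tested. C1qbp, encoding a mitochondrial protein that can bind C1q, was 2.30-fold higher (1.203 ± 0.17, adjusted p = 3.10e-05), at 52.6 to 146 CPM in mature adipocytes, against 32.5 to 46.2 CPM in high-fat preadipocytes. Cd55, which encodes decay accelerating factor, a membrane inhibitor of C3 convertases, was 7.16-fold lower (-2.84 ± 0.37, adjusted p = 1.47e-05), at 46.9 to 153 CPM in mature adipocytes, against 221 to 845 CPM in high-fat preadipocytes. The other higher genes were Cd59b and Cpn2, with Cpn2 at most 1.40 CPM, and the lower genes included C1s2, Colec10, Cd55b and Csmd1, each at most 5.98 CPM.

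Of the 14 complement calls between fractions, 8 were also made in the control libraries alone and 13 in the stress libraries alone. Calls over all genes were fewer in the control libraries as well, 5998 against 10740 with all 13 samples. In control libraries C4a, Hc, C8g, Masp1, Serping1 and Vtn did not pass, with log2 fold changes of -2.96, -2.10, 1.29, 1.49, -1.22 and -0.63 (adjusted p = 0.0826, 0.183, 0.112, 0.150, 0.0623 and 0.458), and in stress libraries C8g did not (0.97, adjusted p = 0.107).

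Whether the high-fat diet altered complement transcripts in preadipocytes was asked in 9 samples, with early life treatment as a covariate. No member passed in the 19998 genes tested (0.0% of all genes), and 3 members had an unadjusted p below 0.05. DESeq2 called 1 member, Itgb2 (2.14, adjusted p = 0.0196), among 324 genes called in all, and limma on FPKM called 0 members. Of the 35 log2 fold changes 25 were positive, with a median of 0.61, against 0.023 over all genes tested. All 7 receptors were positive, from 0.84 for Vsig4 to 2.13 for Itgb2 (median 1.45), and their high-fat and low-fat ranges overlapped except for those of Itgb2 and C3ar1. Those were the members for which every high-fat sample exceeded both low-fat samples (7.15% of all genes), and no member had every high-fat sample below (8.27% of all genes).

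**Figure D4:**
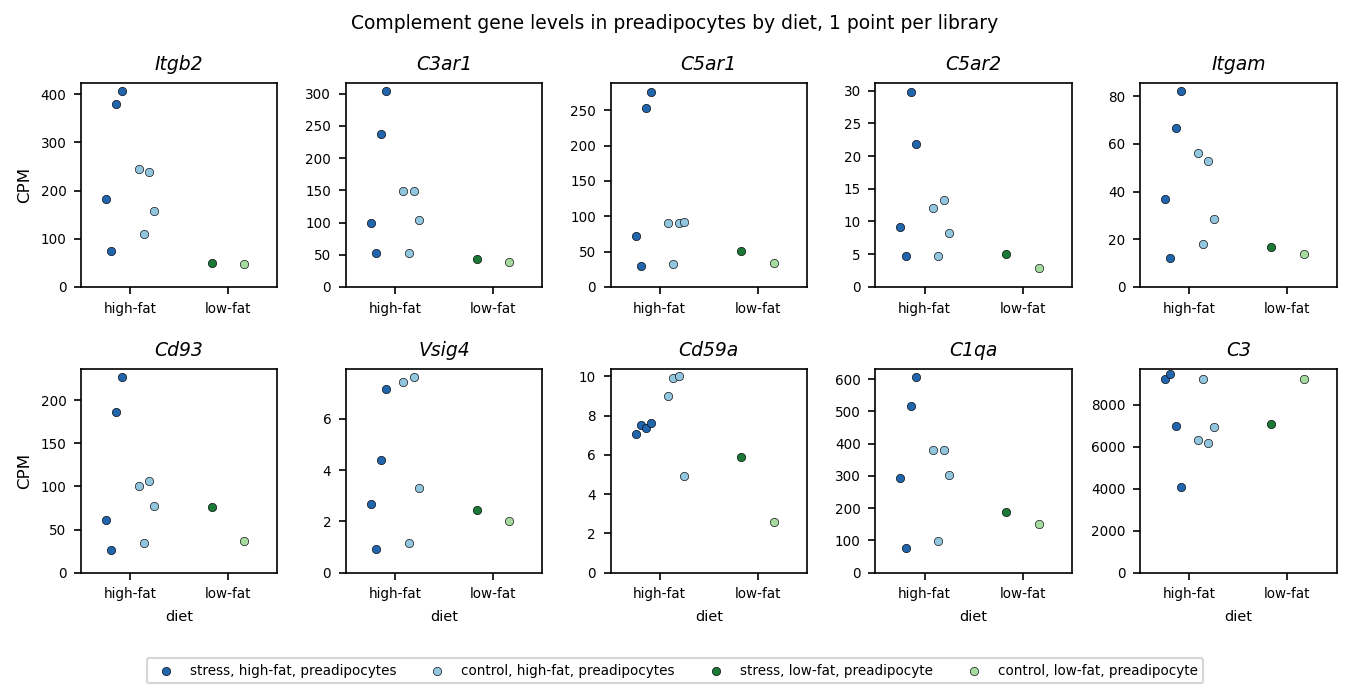
CPM of the 7 receptors, Cd59a, C1qa and C3 in preadipocyte libraries on the high-fat and low-fat diet, 1 point per library, coloured by early life treatment, with axes from 0. Both low-fat points of Itgb2 lie near 49 CPM, under all high-fat points, while those of C3 fall among the high-fat points.

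Itgb2, the beta chain of the leukocyte integrins, had 182, 73.7, 380 and 406 CPM in stress and 244, 111, 238 and 158 CPM in control preadipocytes on the high-fat diet, against 49.0 CPM in the stress and 48.6 CPM in the control library on the low-fat diet. The log2 fold change was 2.13 ± 0.69 (adjusted p = 0.345). C3ar1 had 98.6, 52.5, 237 and 304 CPM in stress and 149, 52.9, 148 and 104 CPM in control high-fat libraries, against 43.7 and 38.1 CPM in the stress and control low-fat libraries (1.72 ± 0.73, adjusted p = 0.396). The low-fat values were close to each other, and the high-fat values spread widely above them. Cd59a had 7.07, 7.53, 7.40 and 7.64 CPM in stress and 9.001, 9.92, 10.03 and 4.91 CPM in control high-fat libraries, against 5.91 and 2.57 CPM in the stress and control low-fat libraries (0.88 ± 0.38, adjusted p = 0.400).

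Several marker lists shifted beside these values, with 0 markers past the adjusted threshold. Of the macrophage markers 13 of 16 were positive (median 1.21), with 6 at an unadjusted p below 0.05. Of the mature adipocyte markers 7 of 8 were positive (median 0.83), with 2 at an unadjusted p below 0.05, and of the mesothelial markers 7 of 8 (median 1.16). Positive as well were all 4 neutrophil markers tested (median 1.44) and all 4 B cell markers (median 0.73). So were all 4 mural markers (median 0.565) and 4 of 5 T and NK cell markers (median 0.29). All 8 progenitor markers were negative (median -0.49), as were all 8 endothelial markers (median -0.78). The macrophage marker sum was 1556 to 8144 CPM in high-fat libraries, against 1807 and 1519 CPM in the stress and control low-fat libraries. Without stress libraries 3 and 4, Itgb2 stood at 1.57, C3ar1 at 1.07 and Cd59a at 0.90 on the log2 scale. The part of macrophages, neutrophils or other cells in the receptor values, and of adipocyte RNA in the Cd59a value, was not tested. Of the 6 members with the highest mean FPKM in high-fat preadipocytes, C3, Serping1, C1s1 and C1ra had log2 fold changes of -0.13 ± 0.30, -0.06 ± 0.26, -0.15 ± 0.28 and -0.18 ± 0.23, and C1qb and C1qa of 1.45 ± 0.79 and 0.92 ± 0.76 (adjusted p = 0.479 and 0.627).

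Early life stress was compared with control in high-fat preadipocytes (4 samples against 3). No member passed in 17129 genes tested (0.0% of all genes), 1 had an unadjusted p below 0.05, and DESeq2 and limma called 0 members each. Of the 35 log2 fold changes 24 were positive, with a median of 0.09, against 0.020 over all genes tested. Cfi, encoding factor I, had 0.949, 0.847, 2.07 and 2.52 CPM under stress and 0.677, 0.842, 0.571 and 0.265 CPM in control libraries (1.51 ± 0.62, adjusted p = 0.973). The stress values were all higher, although library 2 in each group was nearly equal. Cfi was the 1 member with every stress sample above every control sample (1.73% of all genes), and Masp1 the 1 member with every stress sample below (1.79% of all genes), at 0.172, 0.8003, 1.38 and 0.999 CPM under stress, against 1.27, 1.40, 1.55 and 1.95 CPM in controls, where the near-identical libraries 1 and 3 enter as their mean.

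Hc had 1.42, 5.18, 1.78 and 9.59 CPM under stress and 1.43, 1.64, 1.14 and 1.77 CPM in control preadipocytes (1.57 ± 0.70, adjusted p = 0.973), and 0.80 on the log2 scale without stress library 4. C4b had 693, 578, 949 and 993 CPM under stress and 696, 531, 678 and 573 CPM in controls (0.46 ± 0.27, adjusted p = 0.973). Both overlapped between the groups. Without stress libraries 3 and 4, which held the high macrophage sums, Cfi stood at 0.57, Hc at 0.9959 and C4b at 0.03. Those libraries also held the lowest progenitor (8781 and 6824 CPM) and endothelial (192 and 178 CPM) marker sums of the high-fat preadipocyte libraries. Their mesothelial (163 and 137 CPM) and mural (42.1 and 38.8 CPM) marker sums were the lowest as well. Of the 7 receptors 6 were positive, led by C5ar1 at 1.21 ± 0.80, and 14 of 16 macrophage markers were positive (median 0.62), with sums of 1556 to 8144 CPM under stress, against 1663 to 4295 CPM in controls, and 1 marker at an unadjusted p below 0.05. All 8 endothelial markers (median -1.18, 3 at an unadjusted p below 0.05), all 8 mesothelial markers (median -1.10), all 4 B cell markers (median -1.08, 2 at an unadjusted p below 0.05), all 5 T and NK cell markers (median -0.70) and all 4 mural markers (median -0.67) were negative. All 4 neutrophil markers tested were positive (median 0.50). The part of any of these cell types in the complement values was not tested. C3, C1s1 and Colec12, 3 of the genes with the clearest difference between fractions, had log2 fold changes of -0.0032 ± 0.31, 0.0015 ± 0.29 and 0.0077 ± 0.30.

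In high-fat mature adipocytes (3 samples against 3) 33 of the 35 genes were tested, since C4a and Hc fell under the filter on low counts. No member passed in 14485 genes (0.0% of all genes), 3 had an unadjusted p below 0.05, and DESeq2 and limma called 0. Here 25 of 33 log2 fold changes were negative, with a median of -0.35, against -0.0086 over all genes tested. Of the macrophage markers 13 of 16 were negative (median -0.29), as were 6 of 8 mature adipocyte markers (median -0.34), and their part in the complement values was not tested. Serping1 had 286, 221 and 267 CPM under stress and 790, 270 and 862 CPM in controls (-1.35 ± 0.44, adjusted p = 0.9996). C6 had 50.02, 50.04 and 51.9 CPM under stress and 147, 43.4 and 118 CPM in controls (-1.06 ± 0.43), and Cd59a 292, 156 and 138 CPM under stress and 508, 208 and 435 CPM in controls (-1.01 ± 0.44), each with the same adjusted p. For Serping1 and Cd59a control library 2 fell among the stress libraries, for C6 it lay below them, and for all 3 genes control libraries 1 and 3 were higher.

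Those 2 libraries are the ones with few rare transcripts. Without them the log2 fold changes were -0.07 for Serping1, 0.22 for C6 and -0.09 for Cd59a, in a fit that assumes the remaining control library to vary like the stress libraries. Control library 2, which remained, had the lowest mature adipocyte marker sum of the mature libraries, at 17014 CPM. Control libraries 1 and 3 had 57172 and 36181 CPM. Control library 2 also had the highest macrophage marker sum of them, at 7910 CPM, against 2026 and 3322 CPM in control libraries 1 and 3. The parts of library quality and of cell content in the 3 values were not tested further. C1ra was the only member whose 3 stress samples all lay below the 3 control samples (2.93% of all genes), at 33.5, 34.5 and 41.9 CPM under stress, against 42.6, 51.4 and 64.3 CPM in controls, and no member lay above in all (4.13% of all genes).

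**Figure D5:**
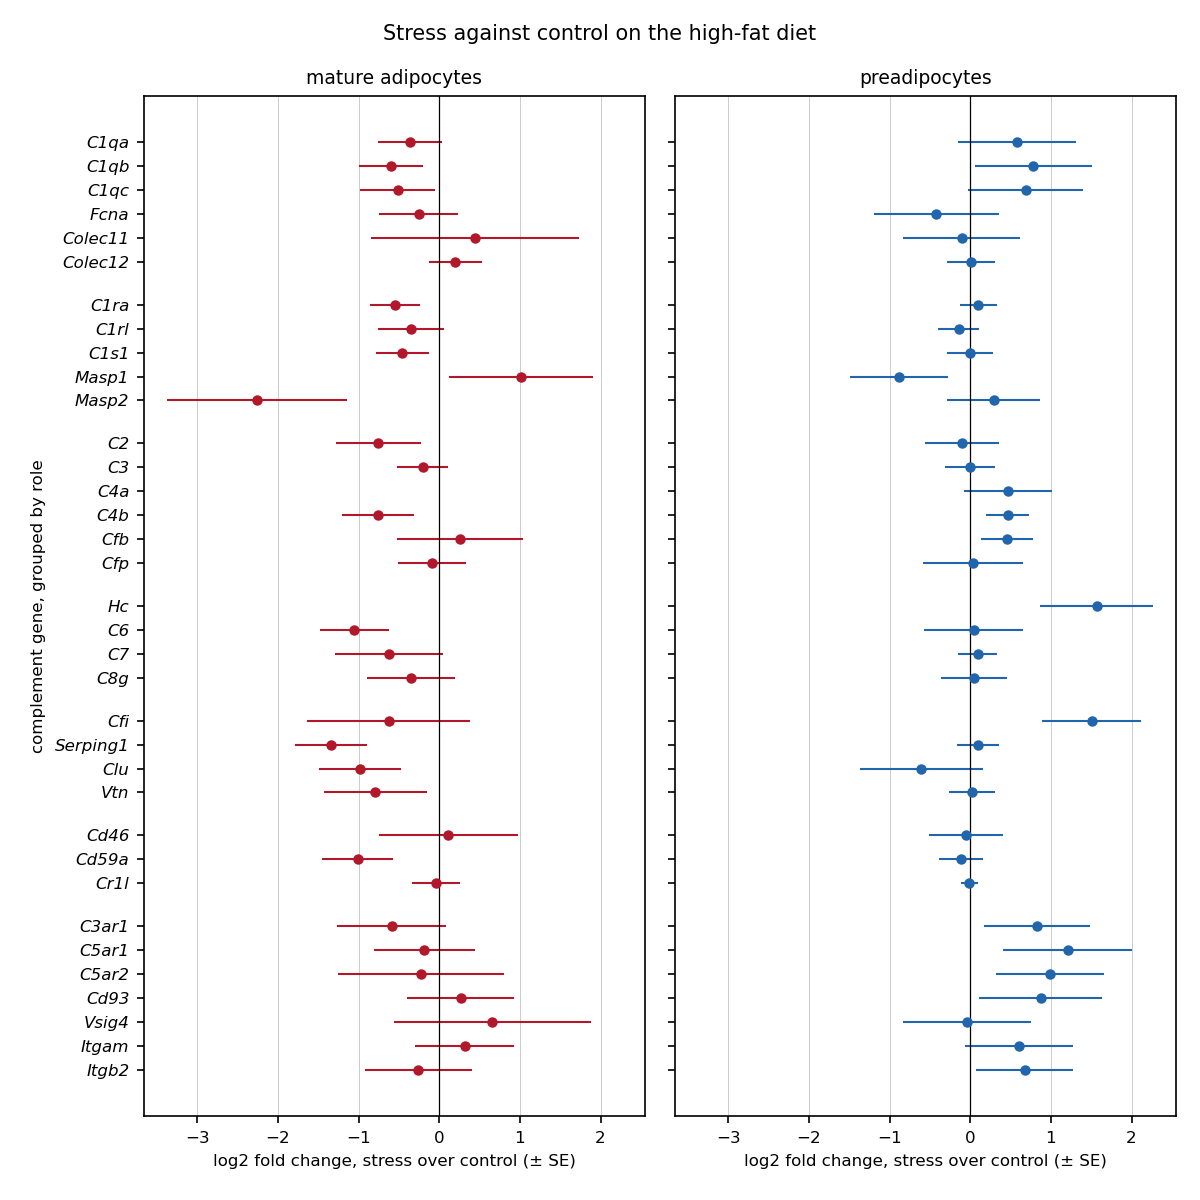
Log2 fold change of stress over control on the high-fat diet for the complement genes, in mature adipocytes (left) and preadipocytes (right), with bars for the standard error of each fit and no gene past the adjusted threshold of 0.05. C4a and Hc have no point on the left because they were not tested there. The values on the left centre below 0 (median -0.35) and those on the right near 0 (median 0.09).

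The stress effect in mature adipocytes minus that in preadipocytes was tested as an interaction over the 13 high-fat samples. No member passed in 17948 genes (0.0% of all genes), 2 had an unadjusted p below 0.05, and DESeq2 and limma called 0 members. The median interaction of the 35 genes was -0.64 on the log2 scale, against 0.0054 over all genes tested. Macrophage markers were negative in 13 of 16 (median -0.94), while all 8 endothelial markers (median 1.53) and all 4 B cell markers (median 1.53) were positive, and the part of these cells was not tested. Serping1 had the smallest p, at -1.42 ± 0.55 (adjusted p = 0.934), and stood at -0.13 without control mature adipocyte libraries 1 and 3. That fit kept control library 2, with its high macrophage and low adipocyte marker sums, as the only control mature adipocyte sample. C4b was at -1.16 ± 0.51 and Masp2 at -2.55 ± 1.30 (adjusted p = 0.934 each). Without control mature adipocyte library 3 alone, whose C4b level of 2342 CPM and Masp2 level of 4.30 CPM were the highest of all libraries, C4b stood at -0.47 and Masp2 at -1.33. In the other libraries Masp2 had 0.606, 0.510 and 0.151 CPM in stress and 1.45 and 0.277 CPM in control mature adipocytes, against 0.560, 1.04, 0.395 and 0.174 CPM in stress and 0.478, 0.374, 0.408 and 0.486 CPM in control preadipocytes.

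The low-fat diet was represented by a single preadipocyte library of each early life treatment, so values are given with no test. Among 21 members with at least 10 CPM in either library 1 differed at least 2-fold, against 2.41% of 9480 genes. Cd93 had 76.6 CPM in the stress and 37.0 CPM in the control library (log2 ratio 1.05). Endothelial markers summed to 698 CPM in the stress and 413 CPM in the control library, and macrophage markers to 1807 CPM in the stress and 1519 CPM in the control library, and their part in the Cd93 value was not tested. The abundant members were close: C3 had 7097 CPM in the stress and 9229 CPM in the control library, Serping1 1444 CPM in the stress and 1793 CPM in the control library, and C1s1 1118 CPM in the stress and 1472 CPM in the control library.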

How the data were processed

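The files the authors deposited hold, for 54532 genes in 16 libraries, unnormalised counts, and in a second table FPKM, which scale counts to gene length and library size. Per the submitters' processing notes, STAR 2.6.1d, DESeq2 1.20.0, edgeR 3.24.3 and the build names mm10 and GRCm38 apply; which program counted reads, with which annotation and whether by strand, is not given in the sources used here.

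Counts were tested with edgeR 4.0.16 (TMM, filterByExpr, robust quasi-likelihood fit, F test) in R 4.3.3, with Benjamini-Hochberg adjustment at 0.05 over all genes tested. SE is the log2 fold change divided by the root of F. Control high-fat preadipocyte libraries 1 and 3 were far closer than other replicates, though not identical within counting error (mean chi-square of 4.03 a gene), and were summed in the fits. For the low-fat libraries the log2 ratio of CPM was taken, adding a prior count of 2. Alternatives were DESeq2 1.42.0, limma 3.58.1 on log2(FPKM + 1) for genes with a mean of at least 0.5 FPKM, RLE factors, no filter, the pair kept apart, a replicate block and leaving libraries out. The calculations were tested on simulated data. Promoters are from RefSeq (GRCm38.p6), where 23 of 35 members had one.

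All 35 members were named. Every library is given for members called with an absolute log2 fold change of at least 1, and for the 3 smallest p-values where none was called. The members, gene lists, motifs and tests were chosen with earlier results of these data known. Depth was 14182130 to 23368821 counts, and floors for 0 cover counting error only. An item of the list of further complement genes is not reported here.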

Additional observations from a re-analysis of the deposited data

How the results depend on the processing

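Over all alternatives the complement genes called between fractions numbered 8 to 16, against 14. The count was 8 in control libraries only, and 13 to 15 when 1 sample was left out. Of 319 values of the 14 called members under alternatives, 301 were still called, 18 lost the call and 0 changed direction. C1ra, C1rl, C1s1, C3, C6, C7, Colec12 and Cd59a were called in all 23. No filter on low counts cost C8g and Vtn, and limma did not call C4a, Hc and Masp1, which fell under its floor. DESeq2 added Cd46 (adjusted p = 0.0318). For diet DESeq2 called 1 member, against 0 in all other alternatives. Stress gave 0 members under every alternative in either fraction and for the interaction. DESeq2 called 13080 genes between fractions, 324 for diet, 5 and 16 for stress in preadipocytes and mature adipocytes, and 4 for the interaction, against 10740, 0, 0, 0 and 0 with edgeR. Over all genes 5998 were called between fractions in control libraries only. For stress in mature adipocytes 51 genes were called without the filter and 9 without control library 2, and for diet 1 gene without the filter, 1 with limma and 1 without control preadipocyte library 4.

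Equal replicate numbers were not taken to pair the samples, since same-numbered deviations did not correlate above 0.1 for every number. Between stress and control preadipocytes the correlations were 0.16, 0.33, -0.07 and 0.18 for numbers 1 to 4, and over the other pairs of groups they ran from -0.25 to 0.14. Fits with a block were run all the same, with the near-identical pair kept as 2 libraries. For the fractions and the interaction the block was the replicate number within each early life treatment. Between fractions 15 members were then called, C2 being added (adjusted p = 0.0413), and 0 for the interaction. For stress the block was the replicate number, and 0 members were called in either fraction (1 gene of all in preadipocytes). For diet no fit with the block was run, since both low-fat libraries carry number 1. Depth limits the members under 1 CPM, and 2 low-fat libraries limit the diet comparison.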
